A study of Mus musculus with 12 samples.

Results

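The genes described here are 10 transcripts by which type 2 alveolar epithelial cells are recognised in lung RNA: Sftpc, Sftpb, Sftpa1, Sftpd, Abca3, Lamp3, Slc34a2, Napsa, Etv5 and Cxcl15. They were taken by symbol from a count table of 49585 genes, each matched 1 row, and all 10 were among the 18556 genes with enough counts to be tested. The table holds 12 RNA-seq libraries of whole lung from C57BL/6J mice, every one of which carried a subcutaneous tumour of the mouse melanoma line MO4. The combination group of 3 libraries came from mice aged 22 months that received anti-PD-1 and anti-IL-21 receptor antibodies. The aged anti-PD-1 group (3 libraries) was of the same age and received anti-PD-1. The aged control group (3 libraries), also aged 22 months, received a rat control antibody. The young anti-PD-1 group (3 libraries) was aged 2 months and received anti-PD-1. The receptor PD-1 inhibits T cells, and CD4 T cells are the main source of the cytokine IL-21. Injections of anti-PD-1 or control antibody were on days 3, 7 and 11 after inoculation, and the days for the receptor antibody are not stated in the labels. There is no tumour-free group and no young group without anti-PD-1, so age was compared under anti-PD-1 alone. Whether libraries stand for separate mice is not in the labels, and p-values measure the spread between these samples, which may in part be technical.

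Type 2 cells are the cuboidal cells of the alveolus that make surfactant, the film of phospholipid and protein that keeps the air spaces from collapsing, and they also renew the alveolar lining by giving rise to flat type 1 cells. Surfactant lipid and the hydrophobic proteins SP-B and SP-C are packed in lamellar bodies and released together, while the collectins SP-A and SP-D are secreted proteins that bind microbes and take part in surfactant turnover. The programme is set by lung transcription factors such as NKX2-1, forkhead and C/EBP proteins, and FGF signals that reach the nucleus through ETS factors such as Etv5 help to maintain it.

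Since the 10 genes moved together with age, the promoters of those whose RefSeq start lies within 10 bases of the start in the deposited annotation are shown. RefSeq (GRCm38.p6) gave a promoter for 7 of the 10 genes, and 4 of these met that limit. Each window is the 250 bases before the start site, 5′ to 3′ on the strand of the gene, and capitals mark every match on either strand to CTCAAG (a core of NKX2-1 sites), TGTTTAC (forkhead), TTGCNNAA (C/EBP) or AGGAAG (ETS).
Sftpb promoter, GRCm38.p6 chr6:72304360-72304609, plus strand: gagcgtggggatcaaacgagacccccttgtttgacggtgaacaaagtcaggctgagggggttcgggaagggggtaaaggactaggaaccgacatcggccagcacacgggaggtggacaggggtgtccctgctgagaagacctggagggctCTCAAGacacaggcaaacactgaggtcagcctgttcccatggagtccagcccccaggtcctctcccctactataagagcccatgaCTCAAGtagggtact
Sftpa1 promoter, GRCm38.p6 chr14:41131538-41131787, plus strand: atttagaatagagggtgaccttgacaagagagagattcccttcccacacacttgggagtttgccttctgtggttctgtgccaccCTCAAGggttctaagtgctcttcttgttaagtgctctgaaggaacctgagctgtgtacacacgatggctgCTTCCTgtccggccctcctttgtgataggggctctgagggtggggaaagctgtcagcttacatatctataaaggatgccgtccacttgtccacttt
Lamp3 promoter, GRCm38.p6 chr16:19706366-19706615, minus strand: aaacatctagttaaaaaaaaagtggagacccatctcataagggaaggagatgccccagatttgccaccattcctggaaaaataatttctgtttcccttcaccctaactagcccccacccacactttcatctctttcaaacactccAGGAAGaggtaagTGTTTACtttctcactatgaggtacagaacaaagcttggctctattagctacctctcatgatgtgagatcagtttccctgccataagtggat
Cxcl15 promoter, GRCm38.p6 chr5:90794284-90794533, plus strand: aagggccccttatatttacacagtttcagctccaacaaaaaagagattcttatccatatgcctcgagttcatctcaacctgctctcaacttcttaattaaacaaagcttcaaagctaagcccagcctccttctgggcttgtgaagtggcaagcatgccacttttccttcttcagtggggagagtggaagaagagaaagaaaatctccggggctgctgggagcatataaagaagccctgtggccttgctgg
Sftpb held CTCAAG at 2 places, beginning 100 and 15 bases before its start. Sftpa1 held CTCAAG beginning 166 bases before its start, and the ETS letters on the opposite strand beginning 96 bases before it. Lamp3 held TGTTTAC at 92 bases and AGGAAG at 105 bases before its start, and no motif was found in the window of Cxcl15. Over the 7 genes, 2 had the NKX2-1 letters, 2 the forkhead letters, 1 the C/EBP letters and 2 the ETS letters. The C/EBP match was in Slc34a2 and 1 forkhead match in Etv5. Their RefSeq starts lie 11272 and 149 bases from the deposited ones, outside the limit, and their windows are not shown. Of 32851 promoter windows of the same length, 13.3% had the NKX2-1, 3.17% the forkhead, 9.56% the C/EBP and 29.5% the ETS letters. These matches describe letters in the windows and say nothing of binding.

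Counts per library ran from 16021877 to 22058620. Reads of the 10 genes made up 1.78 ± 0.415% of all counts in combination lungs, 1.74 ± 0.13% in aged anti-PD-1 lungs, 1.73 ± 0.187% in aged control lungs and 2.84 ± 0.307% in young anti-PD-1 lungs (SD, n = 3 each). The lowest count of any of them in any library was 834 (Etv5, combination replicate 2), so counting error was small beside the spread between libraries. Mitochondrial transcripts took 13.4 ± 1.72% of the counts in combination lungs, 9.35 ± 2.18% in aged anti-PD-1 lungs, 8.56 ± 1.62% in aged control lungs and 6.76 ± 0.628% in young lungs. A fit with these and other genes removed before scaling is given near the end. Beyond that fit, the part of this difference in the results was not tested. Values below are CPM, read counts scaled to a common library size with TMM factors, listed from replicate 1 to replicate 3. Tests are edgeR quasi-likelihood tests adjusted over all genes tested, fold changes are log2 values ± SE, and a gene is called at an adjusted p under 0.05.

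Per kilobase of exon, the genes spanned a 699.5-fold range. Over the 12 libraries Sftpc stood at 12242 CPM per kb, followed by Sftpb at 1073, Sftpa1 at 847 and Cxcl15 at 458 CPM per kb. Abca3 and Etv5, a membrane transporter and a transcription factor, were lowest at 22.4 and 17.5 CPM per kb. The high levels of Sftpc and of the other secreted products are those of a lung sample, and all 10 genes were present in every library.

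Between aged and young mice that both received anti-PD-1, all 10 genes were lower in the aged lungs and all 10 were called. Levels in aged anti-PD-1 lungs were between 49.7% (Lamp3) and 73.0% (Napsa) of those in young lungs, and the 3 libraries of the aged group lay below the 3 young libraries for each of the 10. Among all genes tested, 7.16% were called lower and 8.09% were called higher in this comparison, and for 19.9% the aged libraries all lay below the young ones. The median fold change of the 10 genes was -0.72, beside -0.01 over all genes tested. In whole-lung RNA, fewer type 2 cells and less of these transcripts per cell cannot be told apart.

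**Figure D1:**
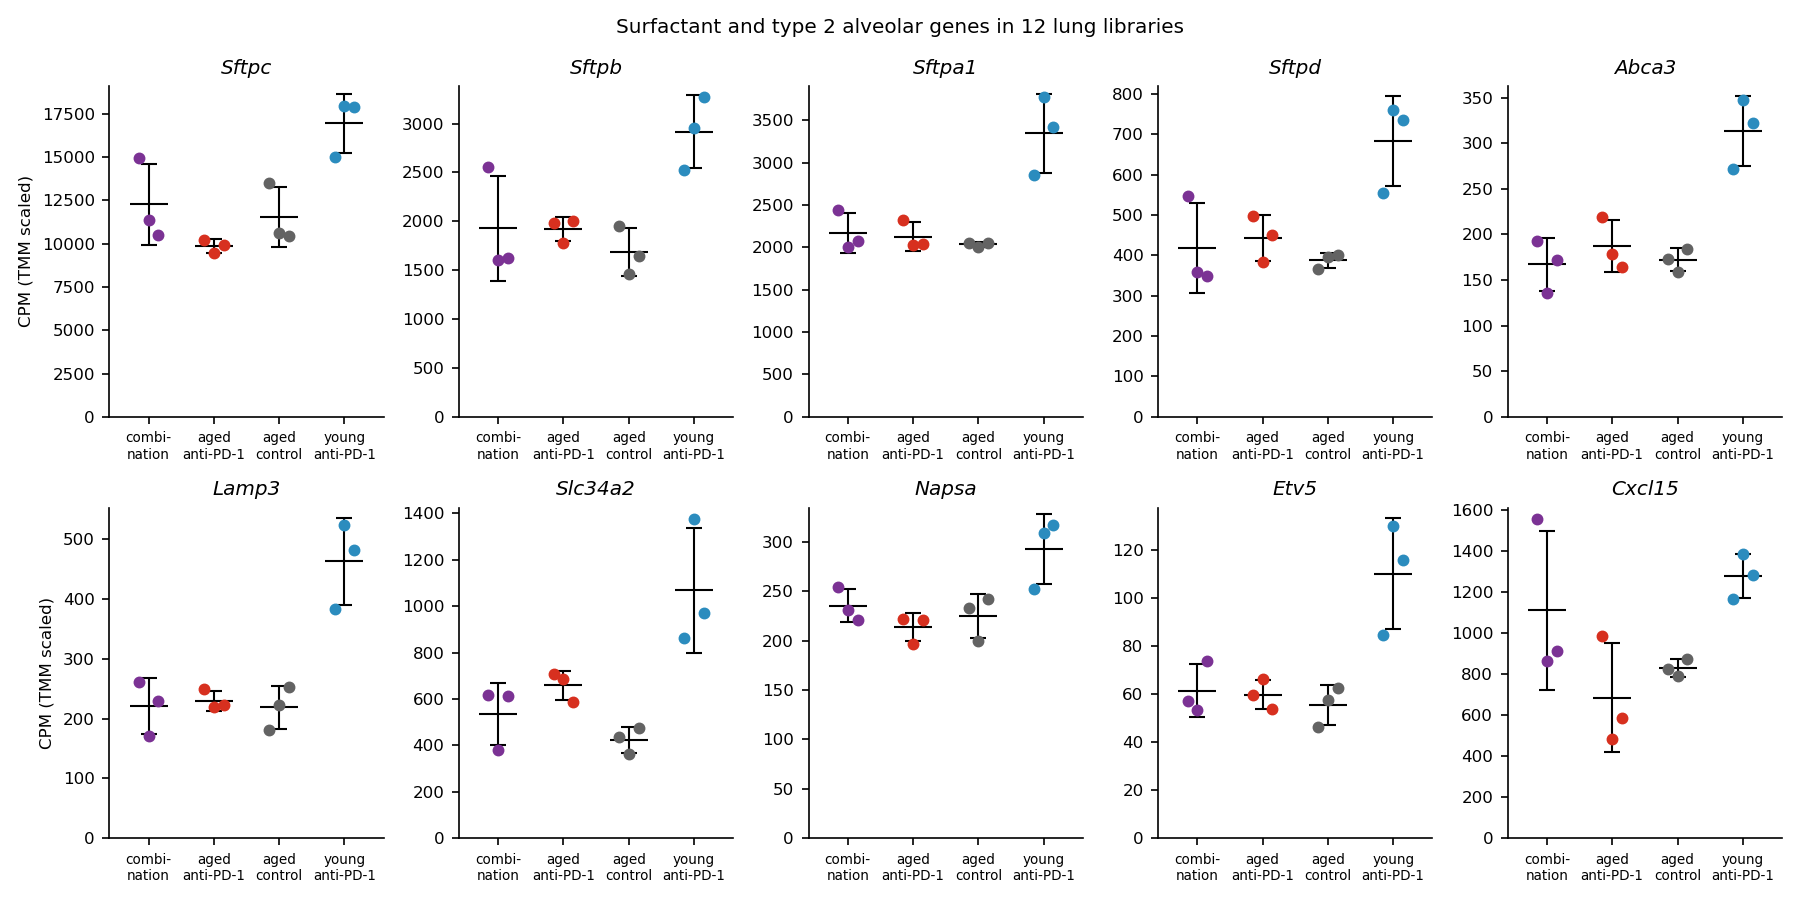
Level of each of the 10 genes in the 12 libraries (CPM, TMM scaled, linear axes from 0), with 1 point per library, the group mean as a long bar and the SD as whiskers (n = 3 per group). The 3 aged anti-PD-1 libraries lie below the 3 young anti-PD-1 libraries in each panel, and the 3 aged groups lie close to each other in most panels.

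The hydrophobic surfactant proteins held most of these reads. Sftpc encodes SP-C, a peptide that embeds in the lipid film and is made in the lung by type 2 cells alone (ENSMUSG00000022097, chromosome 14, 70520941 to 70524081, mm10). It had 14944, 11378 and 10512 CPM in combination lungs, 10239, 9456 and 9902 CPM in aged anti-PD-1 lungs, 13513, 10631 and 10462 CPM in aged control lungs, and 15003, 17972 and 17889 CPM in young anti-PD-1 lungs. The first combination library nearly reached the lowest young library, and the aged anti-PD-1 libraries were the lowest and most alike. Aged over young, Sftpc fell by 0.78 ± 0.17 (edgeR adjusted p 0.00836). Sftpb encodes SP-B, without which lamellar bodies do not form properly (ENSMUSG00000056370, chromosome 6, 72304610 to 72314371). Its levels were 2552, 1599.9 and 1629 CPM in combination lungs, 1984, 1778 and 2001 CPM in aged anti-PD-1 lungs, 1949.8, 1463 and 1643 CPM in aged control lungs, and 2527, 2956 and 3268 CPM in young lungs. Here the first combination library lay just above the lowest young library, while the aged anti-PD-1 group was clear of the young group. The aged level was 65.9% of the young level, a change of -0.60 ± 0.18 (edgeR adjusted p 0.0395).

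The collectin genes Sftpa1 (ENSMUSG00000021789, chromosome 14, 41131782 to 41136452) and Sftpd (ENSMUSG00000021795, chromosome 14, 41172212 to 41185198) lie 35.8 kb apart and encode SP-A and SP-D. Sftpa1 had 2437, 2003 and 2077 CPM in combination lungs, 2322, 2025 and 2036 CPM in aged anti-PD-1 lungs, 2050.0, 2005 and 2054 CPM in aged control lungs, and 2852, 3772 and 3423 CPM in young lungs. The 9 aged libraries lay within a narrow band below all 3 young libraries. Sftpa1 fell by 0.65 ± 0.13 with age (edgeR adjusted p 0.00645). Sftpd had 547, 359 and 350.1 CPM in combination lungs, 497, 384 and 451 CPM in aged anti-PD-1 lungs, 367, 395 and 402 CPM in aged control lungs, and 555, 760.3 and 735 CPM in young lungs. Again no aged library reached the young range, although the first combination library came close to it. Its change with age was -0.62 ± 0.17 (edgeR adjusted p 0.028). The log2 ratio of Sftpd to Sftpa1 differed between groups by less than the largest SD within them, with means of -2.40 ± 0.22 in combination lungs, -2.27 ± 0.12 in aged anti-PD-1 lungs, -2.39 ± 0.08 in aged control lungs and -2.30 ± 0.07 in young lungs.

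Genes of the lamellar body changed by different amounts. Lamp3 encodes a glycoprotein of its limiting membrane, also found in mature dendritic cells (ENSMUSG00000041247, chromosome 16, 19653381 to 19706365), and gave the steepest estimate of the 10. It had 262, 171 and 230.1 CPM in combination lungs, 249, 219 and 222 CPM in aged anti-PD-1 lungs, 181, 222 and 253 CPM in aged control lungs, and 383, 523 and 482 CPM in young lungs. All 9 aged libraries lay far below the young ones. Lamp3 fell by 1.01 ± 0.17 with age (edgeR adjusted p 0.00211). Abca3, the pump that loads phospholipid into the lamellar body (ENSMUSG00000024130, chromosome 17, 24351950 to 24410201), had 193, 136 and 172 CPM in combination lungs, 219, 179 and 164 CPM in aged anti-PD-1 lungs, 173, 159 and 184 CPM in aged control lungs, and 272, 347 and 322 CPM in young lungs. The aged groups overlapped each other and none reached the young range. Abca3 fell by 0.75 ± 0.14 (edgeR adjusted p 0.00482).

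Napsa, an aspartic protease that helps to mature the SP-B precursor (ENSMUSG00000002204, chromosome 7, 44572380 to 44586862), gave the shallowest estimate. It had 254, 231 and 221 CPM in combination lungs, 222, 197 and 221 CPM in aged anti-PD-1 lungs, 233, 199.9 and 242 CPM in aged control lungs, and 252, 309 and 317 CPM in young lungs. The lowest young library stood within the range of the combination group. The change with age was -0.45 ± 0.12 (edgeR adjusted p 0.0191). Between Lamp3 and Napsa, the genes at the ends of the range and therefore picked after their values were seen, the log2 ratio was -0.11 ± 0.28 in combination lungs, 0.11 ± 0.09 in aged anti-PD-1 lungs, -0.05 ± 0.28 in aged control lungs and 0.66 ± 0.09 in young lungs (SD, n = 3 each). Reads of the opposite-strand genes D330041H03Rik (85.0 CPM, over Abca3) and Gm15396 (69.9 CPM, over Napsa) cannot be told apart from theirs if the counting ignored strand, which the sources used here do not give.

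Slc34a2 encodes the sodium-coupled phosphate carrier of the type 2 cell surface (ENSMUSG00000029188, chromosome 5, 53038081 to 53071664). Its values were 616, 382 and 612 CPM in combination lungs, 706, 685 and 589 CPM in aged anti-PD-1 lungs, 435, 364 and 473 CPM in aged control lungs, and 863, 1374 and 969 CPM in young lungs. The young group was highest and the aged control group lowest, with the aged anti-PD-1 group between them and clear of both. Against the young group, Slc34a2 fell by 0.70 ± 0.20 in aged anti-PD-1 lungs (edgeR adjusted p 0.0329).

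Etv5, the ETS transcription factor that FGF signals induce in type 2 cells (ENSMUSG00000013089, chromosome 16, 22381309 to 22439719), had 57.0, 53.3 and 73.9 CPM in combination lungs, 59.5, 66.1 and 53.8 CPM in aged anti-PD-1 lungs, 46.3, 57.4 and 62.4 CPM in aged control lungs, and 84.6, 129.8 and 116 CPM in young lungs. The 9 aged libraries overlapped each other and lay below the young ones. Etv5 fell by 0.88 ± 0.17 (edgeR adjusted p 0.00469), to 54.4% of the young level.

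Cxcl15, a chemokine of lung epithelium that attracts neutrophils in mice (ENSMUSG00000029375, chromosome 5, 90794534 to 90803067), had the largest SD relative to its mean of the 10 in combination lungs (34.8%) and in aged anti-PD-1 lungs (38.8%), but not in aged control lungs (4.98%) or in young lungs (8.51%). It had 1554, 865 and 910 CPM in combination lungs, 984, 482 and 585 CPM in aged anti-PD-1 lungs, 822, 792 and 874 CPM in aged control lungs, and 1165, 1382 and 1283 CPM in young lungs. The first combination library was the highest of all 12, and aged anti-PD-1 replicates 2 and 3 were the lowest. Cxcl15 fell by 0.90 ± 0.25 with age (edgeR adjusted p 0.0317), to 53.6% of the young level.

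The age calls of Sftpc, Sftpa1, Abca3, Lamp3 and Etv5 held when any 1 of the 6 libraries of the comparison was left out, with a highest edgeR adjusted p of 0.0485 for Sftpc. Those of Sftpb, Sftpd, Slc34a2, Napsa and Cxcl15 did not. With 1 library left out, 8 of the 10 genes were called without aged anti-PD-1 replicate 1, 5 without replicate 2 and 5 without replicate 3. Likewise 9 were called without young replicate 1, 5 without replicate 2 and 5 without replicate 3. Calls over all genes tested were fewer in these fits too. With all libraries 1328 of 18556 genes were called lower. The number was 1084, 776 and 517 without aged anti-PD-1 replicates 1, 2 and 3. It was 1000, 652 and 449 without young replicates 1, 2 and 3 (18877 to 18918 genes tested in these fits). The highest edgeR adjusted p over these fits was 0.178 for Sftpb, 0.124 for Sftpd, 0.15 for Slc34a2, 0.118 for Napsa and 0.121 for Cxcl15. All 10 estimates stayed below 0 in each of these fits, from -1.26 (Cxcl15) to -0.37 (Napsa).

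The other aged groups stood on the same side of the young group. In the aged control group the 3 libraries lay below the 3 young libraries for all 10 genes, as for 14.5% of all genes tested, but these groups differ in antibody as well as age and were not tested against each other. All 9 aged libraries lay below all 3 young libraries for 7 of the 10 genes, as for 5.53% of all genes tested. The exceptions were Sftpb, Napsa and Cxcl15, and for each the library above the lowest young one was the first of the combination group. The young group had the highest mean for all 10 genes. The lowest mean was in aged control lungs for 6 genes (Sftpb, Sftpa1, Sftpd, Lamp3, Slc34a2 and Etv5), in aged anti-PD-1 lungs for 3 (Sftpc, Napsa and Cxcl15) and in combination lungs for 1 (Abca3), with aged groups that overlapped in most of these orders.

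Within groups most of the genes also moved together from library to library. The first combination library was the highest of its group for 9 of the 10 genes, the first aged anti-PD-1 library for 8 and the third aged control library for 8, and the first young library was the lowest of its group for all 10. After group means were removed, the 45 pairs of genes had a median Pearson r of 0.66 over the 12 libraries, 30 pairs were above 0.5 and 3 were below 0. Sftpb and Sftpc were the most alike (r = 0.93), and Sftpc and Etv5 the least (r = -0.21). The 9 pairs with Etv5 had a median r of 0.18, and the 36 others 0.70. These values describe 12 libraries that share depth and tissue composition with every gene in them. The same values for pairs of other genes were not computed, so they are not a result particular to the 10.

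Further type 2 genes outside the 10 followed the same direction with age. Of 12 such genes, 11 fell and the other was not called (median -0.97, beside -0.01 over all genes tested). Lyz1, a lysozyme of mouse type 2 cells, fell by 1.65 ± 0.18 (edgeR adjusted p 0.000311), with 131 ± 6.32 CPM in aged and 412 ± 18.8 CPM in young lungs. Acoxl, an acyl-CoA oxidase-like gene, fell by 1.27 ± 0.25 (edgeR adjusted p 0.00584), S100g, a calcium-binding protein, by 1.23 ± 0.16 (edgeR adjusted p 0.000464) and Egfl6, a secreted EGF-repeat protein, by 1.17 ± 0.20 (edgeR adjusted p 0.00303). Ctsh, a cathepsin that takes part in maturing SP-B, was at 0.08 ± 0.20 (edgeR adjusted p 0.827). With 1 library left out, 10 or 11 of the 12 were called lower.

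Surfactant also needs lipid, and an organelle to store it. Of 13 lipid synthesis genes 9 fell (median -0.50), and the count was 8, 7 and 6 without aged anti-PD-1 replicates 1, 2 and 3 and 9, 6 and 5 without young replicates 1, 2 and 3. Scd1, the desaturase that makes monounsaturated fatty acids, fell by 1.26 ± 0.20 (edgeR adjusted p 0.00161), fatty acid synthase Fasn by 1.10 ± 0.17 (edgeR adjusted p 0.00143) and choline kinase Chka, which opens the route to phosphatidylcholine, by 1.04 ± 0.20 (edgeR adjusted p 0.00572). Acaca, which makes malonyl-CoA, fell by 0.81 ± 0.14 (edgeR adjusted p 0.00273), while Cept1 (0.18 ± 0.12, edgeR adjusted p 0.365) and Scap (-0.14 ± 0.10, edgeR adjusted p 0.37) were not called. Of 12 genes for lamellar body biogenesis and traffic, none was called by edgeR (median 0.05), nor was any when 1 library was left out. The most abundant of them were Atp11a, a lipid flippase (-0.44 ± 0.16, edgeR adjusted p 0.0844), and Adgrf5, a receptor that limits surfactant (0.12 ± 0.18, edgeR adjusted p 0.719). These traffic genes are used by many cell types. The difference between the lists was not tested.

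Of 10 transcription factors of type 2 cells, 4 fell with age (median -0.52), and 2 did without aged anti-PD-1 replicate 2 or 3 or young replicate 2 or 3. Tfcp2l1 fell by 1.53 ± 0.24 (edgeR adjusted p 0.0018), Gata6 by 1.19 ± 0.19 (edgeR adjusted p 0.00176), Klf5 by 1.14 ± 0.31 (edgeR adjusted p 0.0282) and Grhl2 by 0.56 ± 0.16 (edgeR adjusted p 0.0364). The 6 others were not called, and these were Nkx2-1, Foxa1, Foxa2, Nfib, Cebpa and Stat3. The most abundant of the 6 were Cebpa (-0.12 ± 0.19, edgeR adjusted p 0.721) and Stat3 (0.01 ± 0.11, edgeR adjusted p 0.962), which other lung cells express too. Of 8 genes of FGF signalling around Etv5, the receptor Fgfr2 fell by 0.61 ± 0.17 (edgeR adjusted p 0.0247), whereas the feedback inhibitors Dusp6 and Spry4 rose by 1.00 ± 0.14 (edgeR adjusted p 0.000948) and 1.04 ± 0.21 (edgeR adjusted p 0.00551). Calls lost with 1 library left out were those of Klf5 and Grhl2 (without aged anti-PD-1 replicate 2 or 3 or young replicate 2 or 3, highest edgeR adjusted p 0.112 and 0.145) and of Fgfr2 (without aged anti-PD-1 replicate 3 or young replicate 2 or 3, highest edgeR adjusted p 0.106).

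**Figure D2:**
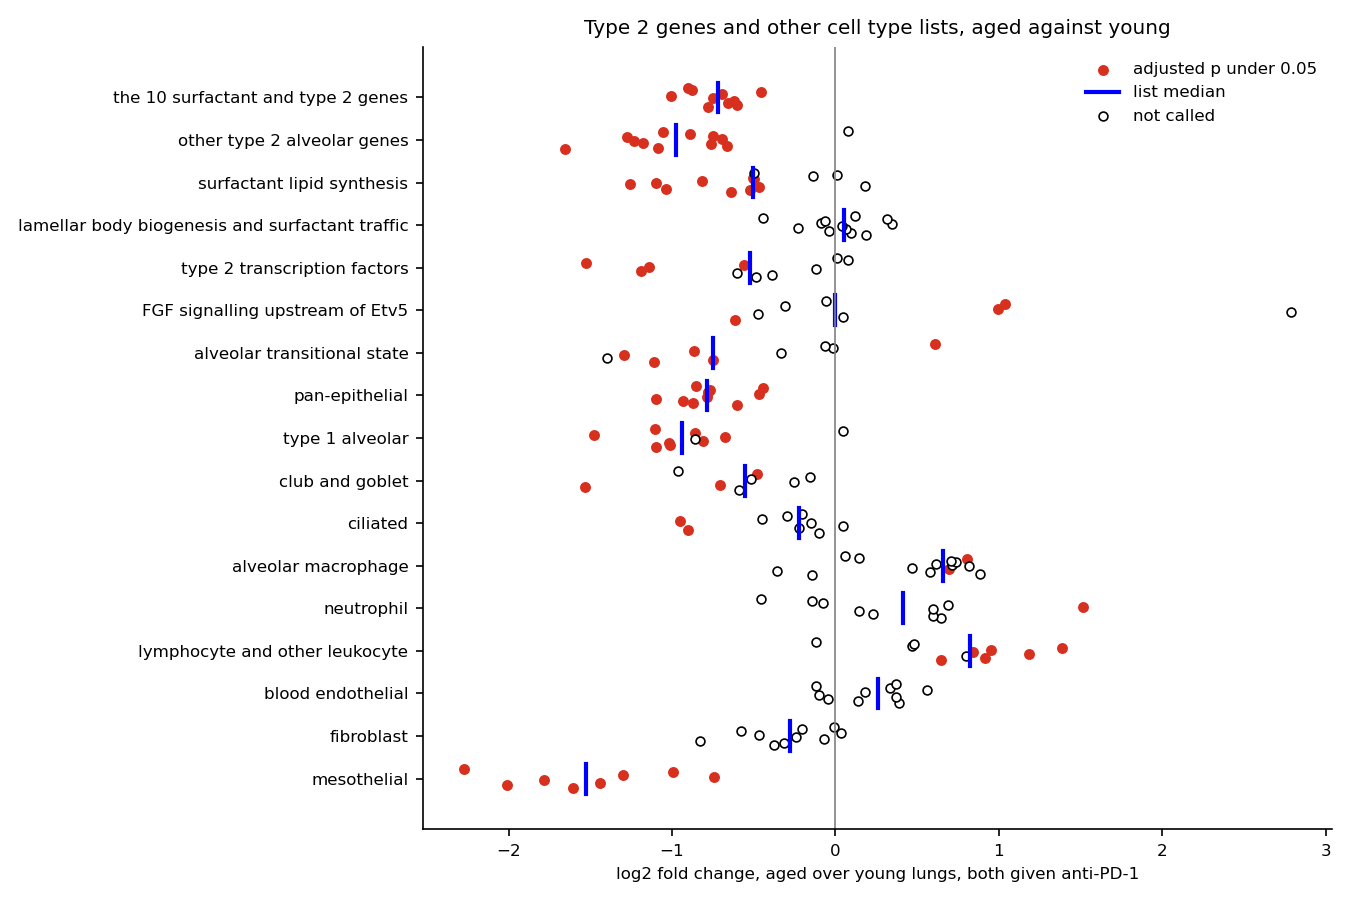
Log2 fold change of aged over young lungs, both after anti-PD-1, for the 10 genes (top row) and 16 gene lists, with 1 point per gene, filled red where the edgeR adjusted p was under 0.05, and a blue bar at the list median. The 10 genes have a median of -0.72, close to the pan-epithelial (-0.78) and type 1 alveolar (-0.94) lists and opposite in sign to the leukocyte list (0.82).

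Genes that all epithelial cells share fell as well. Of 10 pan-epithelial genes such as Cdh1, the E-cadherin of cell junctions (-0.87 ± 0.17, edgeR adjusted p 0.0043), and the keratin Krt18 (-1.10 ± 0.22, edgeR adjusted p 0.00685), all 10 were called lower, with a median of -0.78. With 1 library left out the count was 8, 6 and 5 without aged anti-PD-1 replicates 1, 2 and 3, and 10, 7 and 3 without young replicates 1, 2 and 3. Of 10 type 1 alveolar genes 8 fell (median -0.94), among them the anchoring protein Akap5 (-1.47 ± 0.28, edgeR adjusted p 0.00541) and the receptor Ager (-1.10 ± 0.33, edgeR adjusted p 0.0401), whose call was lost without any 1 of the 6 libraries (highest edgeR adjusted p 0.15). That count was 8, 5 and 2 without aged anti-PD-1 replicates 1, 2 and 3, and 6, 5 and 1 without young replicates 1, 2 and 3. Of 8 club and goblet genes 3 fell, or 2 without aged anti-PD-1 replicate 1 or 2 or young replicate 1, and 1 without any other. Of 9 ciliated genes 2 fell, or 1 without aged anti-PD-1 replicate 3 or young replicate 2 or 3. None of 10 blood endothelial or 10 fibroblast genes was called by edgeR with all libraries. Of 9 genes of the transitional state between type 2 and type 1 cells 4 fell and 1 rose (2 fell without aged anti-PD-1 replicate 3).

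Markers of other cells moved in both directions beside the 10 genes. Of 10 lymphocyte and other leukocyte genes 6 rose (median 0.82), among them the B cell gene Ms4a1 by 1.39 ± 0.23 (edgeR adjusted p 0.00264), a count of 5, 3 and 1 without aged anti-PD-1 replicates 1, 2 and 3 and of 3, 1 and 2 without young replicates 1, 2 and 3. The summed level of the list was 704 to 842 CPM in aged and 473 to 489 CPM in young lungs. Of 14 alveolar macrophage genes, those of the cells that clear surfactant, 2 rose (median 0.66; 3 without aged anti-PD-1 replicate 2, 1 without young replicate 2 and 0 by edgeR without any other), and their sum was 1939 to 3592 CPM in aged and 1805 to 2122 CPM in young lungs. All 8 mesothelial genes fell (median -1.52; 5 and 4 without aged anti-PD-1 replicates 2 and 3, 5 without young replicate 2), with sums of 138 to 211 CPM in aged and 322 to 499 CPM in young lungs. Of 10 neutrophil genes 1 rose (0 without young replicate 1 or 3, 4 without young replicate 2). No gene of these lists was at 0 throughout a group. The genes of these lists with a mean under 1 CPM were Krt14 in aged anti-PD-1 lungs and the neutrophil gene Ly6g in both groups of this comparison. Krt14, counted among the 8 genes of the mesothelial list, had means of 0.334 CPM in aged anti-PD-1 and 1.62 CPM in young lungs, near the floor. The part of these cell types in the change of the 10 genes was not tested.

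Set against the 10 pan-epithelial genes of the same library, the age difference of the 10 genes was small. The scale is log2 CPM less the mean log2 CPM of the pan-epithelial genes. The difference between aged and young lungs ran from -0.25 (Lamp3) to 0.30 (Napsa), with 6 genes above 0, 4 below and a median of 0.04. Libraries of the groups did not overlap for 1 gene, Napsa, and the share over all genes tested was not computed on this scale. Sftpc, for example, stood at 7.47 ± 0.20 in aged anti-PD-1 lungs and 7.50 ± 0.16 in young lungs, and Abca3 at 1.75 ± 0.06 in aged anti-PD-1 lungs and 1.74 ± 0.20 in young lungs (SD, n = 3 each). When libraries were scaled to those genes in place of TMM, an alternative chosen after the data were seen, none of the 10 genes was called by edgeR with age. Under that scaling 12452 of 18556 genes tested were called higher and 89 lower. It moved the median of all genes tested to 0.75, so that fold changes under it are relative to a fallen epithelial level.

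**Figure D3:**
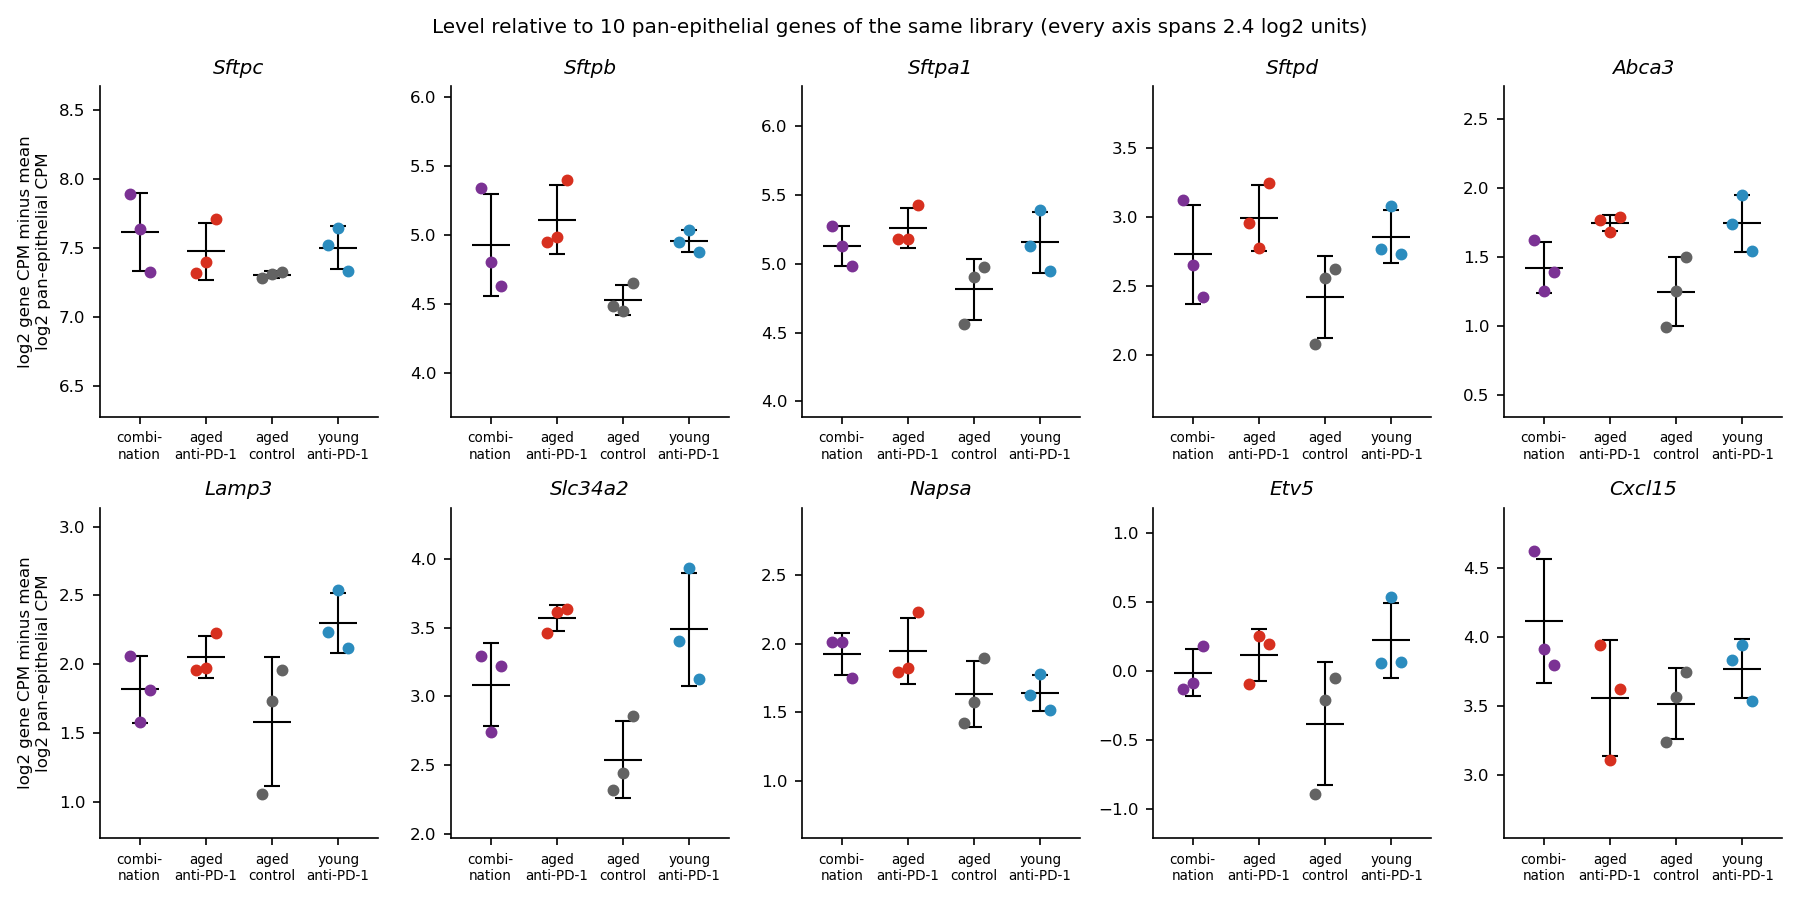
Level of each gene relative to 10 pan-epithelial genes of the same library (log2 CPM of the gene less the mean log2 CPM of those genes), 1 point per library with group mean and SD (n = 3 per group). The axes are cropped and each spans 2.4 log2 units. Aged and young anti-PD-1 groups stand at like levels for most genes. The 3 aged control libraries lie below the 3 aged anti-PD-1 libraries for 5 genes (Sftpb, Sftpa1, Sftpd, Abca3 and Slc34a2). The share of all genes tested that do so on this scale was not computed.

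Genes with a pattern like that of the 10 were sought by correlating log2 CPM with the mean standardised level of the 10 over 12 libraries. The search covered 14135 tested genes outside the 10 with a mean of at least 1 CPM. Genes with predicted-gene names (Gm numbers or Rik) were left out. The most alike were Lgi3 (r = 0.97), Egfl6 (0.97), Dram1 (0.96), Lpcat1 (0.96), Scd1 (0.96), Rbpjl (0.95), Sox4 (0.95) and Rmdn2 (0.95). Over the 9 aged libraries alone their r ran from 0.58 (Rmdn2) to 0.85 (Egfl6 and Rbpjl), so that much of the likeness lay in the step between young and aged. Penk (r = -0.95), Hist1h4i (-0.95) and Sncg (-0.94) were the most opposite. Points share library and group, and these values carry no test.

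Anti-PD-1 against control antibody, both in aged mice, left the 10 genes without a call. By edgeR 0 of 10 were called, 1 had an unadjusted p under 0.05, and DESeq2 called 1. Among all genes tested 5.58% were called lower and 5.34% were called higher, or 1035 and 990 genes, beside 560 and 1393 with library totals alone. Of these 18556 genes, 5370 had an unadjusted p under 0.05 by edgeR, and DESeq2 called 2972. The median of the 10 was 0.09 (all genes tested, -0.02), with 7 estimates above and 3 below 0, of which Napsa (-0.07) turned to 0.03 with library totals alone. For 2 of the 10 the libraries of the groups did not overlap, as for 32.5% of all genes tested. One was Slc34a2, at 660.1 ± 62.6 CPM in aged anti-PD-1 lungs and 424 ± 55.0 CPM in aged control lungs, a difference of 0.64 ± 0.20 (edgeR adjusted p 0.0555, 95% interval 0.21 to 1.07). It was called under DESeq2 (adjusted p 0.016) and when only the groups compared were fitted (edgeR adjusted p 0.0371). It was also called with immunoglobulin, haemoglobin and mitochondrial genes removed before scaling (edgeR adjusted p 0.0476). With 1 library left out it was called in none of 6 fits (edgeR adjusted p 0.0693 to 0.163). The other was Sftpc, at 9866 ± 393 CPM in aged anti-PD-1 lungs and 11536 ± 1715 CPM in aged control lungs, a difference of -0.23 ± 0.17 (edgeR adjusted p 0.397, 95% interval -0.58 to 0.13). The intervals of Sftpa1 (-0.22 to 0.35) and Napsa (-0.32 to 0.17) were the narrowest of the uncalled genes, while that of Cxcl15 ran from -0.82 to 0.27.

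Relative to the pan-epithelial genes, all 10 genes stood higher in the aged anti-PD-1 than in aged control lungs, by 0.04 (Cxcl15) to 1.03 (Slc34a2), with a median of 0.48. The pan-epithelial mean itself was 5.79 ± 0.22 log2 CPM in aged anti-PD-1 lungs and 6.18 ± 0.23 log2 CPM in aged control lungs, so differences on this scale include that of the reference. Of the 10 pan-epithelial genes 2 were called lower (median -0.38), or 0 without aged anti-PD-1 replicate 2 or 3 or control replicate 2. Slc34a2 was at 3.57 ± 0.09 in aged anti-PD-1 lungs and 2.54 ± 0.28 in aged control lungs on this scale. Libraries of the groups did not overlap for 5 of the 10 genes on it, namely Sftpb, Sftpa1, Sftpd, Abca3 and Slc34a2. The share of all genes tested without overlap on this scale was not computed, so this count is not a result about the 10. Under scaling to the pan-epithelial genes Slc34a2 was called at 1.02 (edgeR adjusted p 0.00209). Over all 18556 genes tested, 3176 were called higher and 91 lower under it, with a median of 0.37. The other 9 of the 10 genes were not called there, and their estimates ran from 0.07 (Cxcl15) to 0.60 (Sftpb).

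Other type 2 and surfactant genes changed singly in this comparison. S100g fell by 0.76 ± 0.16 (edgeR adjusted p 0.0113) and Bex2, a small adaptor protein, by 1.11 ± 0.16 (edgeR adjusted p 0.0037), the 2 called among the 12 other type 2 genes. Chka fell by 0.79 ± 0.20 (edgeR adjusted p 0.0276), the 1 called of 13 lipid genes, and Gata6 by 0.78 ± 0.19 (edgeR adjusted p 0.022), the 1 called of 10 transcription factors. Adgrf5 rose by 0.69 ± 0.18 (edgeR adjusted p 0.0314). In the FGF list Spry4 rose by 1.04 ± 0.21 (edgeR adjusted p 0.00997), Dusp6 rose by 0.68 ± 0.14 (edgeR adjusted p 0.0124) and the mesenchymal ligand Fgf10 fell by 0.68 ± 0.16 (edgeR adjusted p 0.0218). With 1 library left out, S100g, Bex2, Spry4 and Dusp6 kept their calls in all 6 fits. Chka lost its call without aged anti-PD-1 replicate 2 or 3 or control replicate 1 (highest edgeR adjusted p 0.099), and Gata6 without replicate 2 or 3 of either group (edgeR adjusted p up to 0.0765). Adgrf5 lost it without any library other than control replicate 1 (edgeR adjusted p up to 0.11), and Fgf10 without aged anti-PD-1 replicate 3 or control replicate 2 (edgeR adjusted p up to 0.0736).

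Adgrf5 is also an endothelial gene, and 6 of 10 blood endothelial genes rose in the same comparison. Their summed level was 2442 to 2893 CPM in aged anti-PD-1 lungs and 1308 to 2332 CPM in aged control lungs. The count was 2 without aged anti-PD-1 replicate 1 or 2 or control replicate 2, 4 without aged anti-PD-1 replicate 3, 3 without control replicate 3 and 8 without control replicate 1. Of 9 genes of the transitional state between type 2 and type 1 cells, 5 fell, led by the keratin Krt8 at -0.99 ± 0.22 (edgeR adjusted p 0.0181) and stratifin, Sfn, at -1.56 ± 0.31 (edgeR adjusted p 0.012). That count was 2 without aged anti-PD-1 replicate 2 or 3 and 1 without control replicate 2. Krt8 lost its call without any of these libraries and Sfn without control replicate 2 (highest edgeR adjusted p 0.0673 and 0.0546). Krt8 and Sfn are expressed by other epithelia and by mesothelium as well, and 7 of 8 mesothelial genes fell, or 4 without aged anti-PD-1 replicate 2 or 3 (summed level 138 to 211 CPM in aged anti-PD-1 lungs and 327 to 502 CPM in aged control lungs). The part of endothelial and mesothelial RNA in these changes was not tested.

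**Figure D4:**
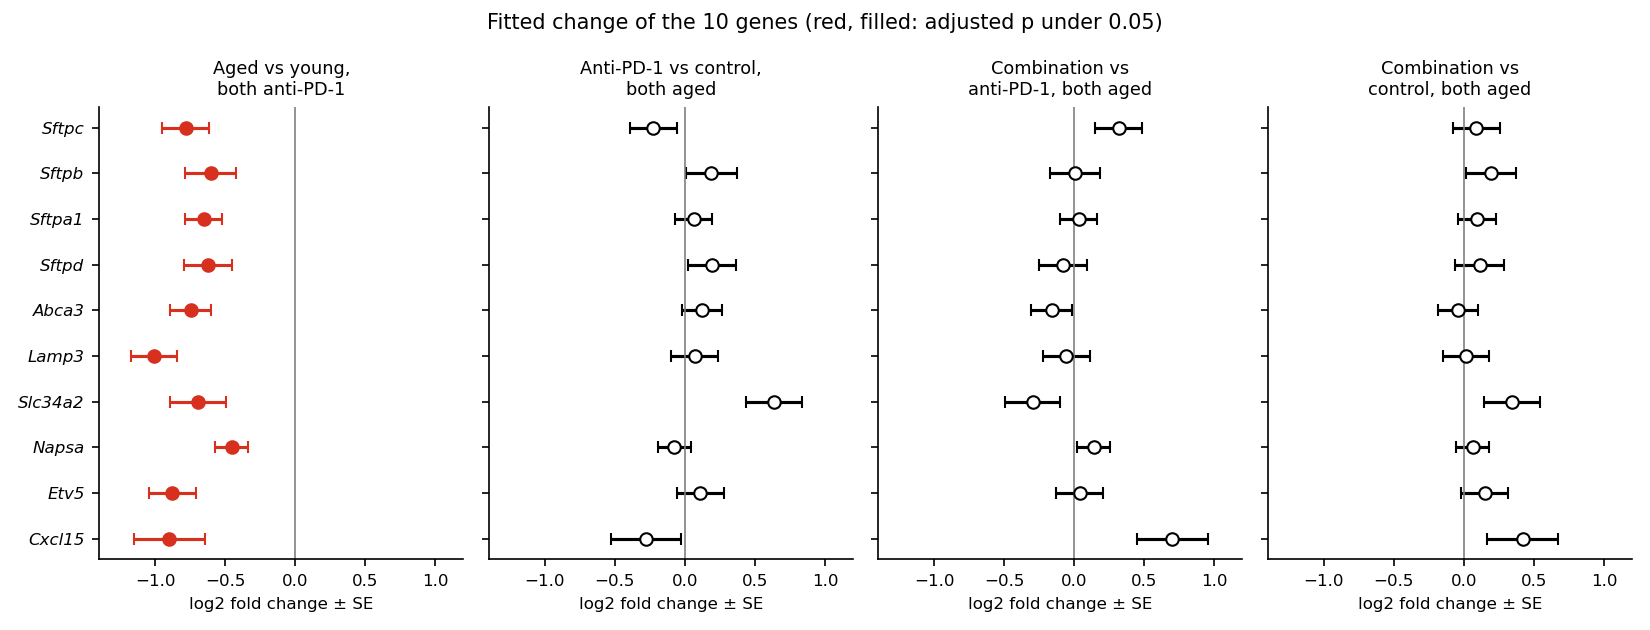
Fitted log2 fold change ± SE of each of the 10 genes in the 4 comparisons, filled red where the edgeR adjusted p was under 0.05. All 10 are red and below 0 between aged and young lungs, and none is called in the 3 comparisons among aged groups, where Slc34a2 (0.64, anti-PD-1 over control) and Cxcl15 (0.70, combination over anti-PD-1) lie farthest from 0.

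Adding the IL-21 receptor antibody to anti-PD-1 in aged mice also gave no call among the 10 genes by edgeR, with 1 at an unadjusted p under 0.05 and 1 called by DESeq2. Among all genes tested 4.35% were called lower and 4.67% were called higher, or 808 and 866 genes, beside 2652 and 362 with library totals alone. Of these 18556 genes, 4905 had an unadjusted p under 0.05 by edgeR, and DESeq2 called 2528. This comparison shares the aged anti-PD-1 libraries with the comparisons above. The median of the 10 was 0.02 (all genes tested, -0.01), with 6 estimates above and 4 below 0. With library totals alone, which moved the median of all genes tested to -0.21, Sftpb, Sftpa1, Napsa and Etv5 were below 0 as well. Cxcl15 was highest, at 1109.6 ± 386 CPM in combination lungs and 684 ± 265 CPM in aged anti-PD-1 lungs, a difference of 0.70 ± 0.25 (edgeR adjusted p 0.0993, 95% interval 0.15 to 1.24), with libraries that overlapped. DESeq2 called it (adjusted p 0.0323), and so did edgeR without aged anti-PD-1 replicate 1 (1.06, edgeR adjusted p 0.0289). Without the first combination library its difference was 0.37 (edgeR adjusted p 0.325). Libraries did not overlap for 1 of the 10, Sftpc, as for 32.2% of all genes tested. Sftpc was at 12278 ± 2349 CPM in combination lungs and 9866 ± 393 CPM in aged anti-PD-1 lungs, a difference of 0.32 ± 0.17 (edgeR adjusted p 0.249, 95% interval -0.04 to 0.67). Slc34a2 was at 537 ± 134 CPM in combination lungs and 660.1 ± 62.6 CPM in aged anti-PD-1 lungs (-0.30 ± 0.20, edgeR adjusted p 0.365, 95% interval -0.73 to 0.13).

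Genes around the 10 that were called here were few. S100g rose by 0.76 ± 0.16 (edgeR adjusted p 0.0129) and Bex2 by 0.95 ± 0.16 (edgeR adjusted p 0.00541) among the 12 other type 2 genes, and in lipid synthesis Chka rose by 0.76 ± 0.20 (edgeR adjusted p 0.0348) and Cept1 fell by 0.52 ± 0.13 (edgeR adjusted p 0.0239). Spry4 fell by 1.07 ± 0.21 (edgeR adjusted p 0.0103), Dusp6 fell by 0.54 ± 0.14 (edgeR adjusted p 0.0322) and Fgf10 rose by 0.72 ± 0.16 (edgeR adjusted p 0.0188). Adgrf5 fell by 0.66 ± 0.18 (edgeR adjusted p 0.0406), beside 5 of 10 blood endothelial genes that fell, or 2 without aged anti-PD-1 replicate 1 or 2 or combination replicate 3 and 1 without combination replicate 2. Calls of Bex2 and Spry4 held with any 1 library left out. That of S100g was lost without replicate 2 of either group, that of Fgf10 without aged anti-PD-1 replicate 3 or combination replicate 2, and those of Chka, Cept1, Dusp6 and Adgrf5 in 4 or 5 of 6 fits, each without aged anti-PD-1 replicate 3 and combination replicates 2 and 3 among them (highest edgeR adjusted p 0.166, Adgrf5). None of the 10 pan-epithelial, 10 type 1 or 10 transcription factor genes was called by edgeR. Cxcl15 draws neutrophils, and 4 of 10 neutrophil genes rose (2 without aged anti-PD-1 replicate 1 or 3 or combination replicate 3, 1 without combination replicate 2), with S100a9 up by 1.34 ± 0.21 (edgeR adjusted p 0.00541) and a summed level of 1586 to 2416 CPM in combination lungs and 809 to 1058 CPM in aged anti-PD-1 lungs. Neutrophil genes were at 1824 to 3301 CPM in aged control lungs, in which Cxcl15 was at 829 ± 41.3 CPM. A link between Cxcl15 and these genes was not tested.

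Between the combination and the aged control group none of the 10 genes was called and none had libraries apart. By edgeR 0.0% of all genes tested were called, 1228 had an unadjusted p under 0.05 and DESeq2 called 68, none of which was among the 10. Libraries did not overlap for 9.71% of all genes tested. The estimates of the 10 had a median of 0.10, with 9 above 0 and 1 below. With library totals alone Lamp3 (-0.07) and Napsa (-0.03) were below 0 too. Cxcl15 (0.42 ± 0.25, edgeR adjusted p 0.832) and Slc34a2 (0.34 ± 0.20, edgeR adjusted p 0.825) were the highest. Their 95% intervals, -0.12 to 0.96 for Cxcl15 and -0.09 to 0.77 for Slc34a2, include 0, and for Lamp3 the interval was -0.34 to 0.37.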

How the data were processed

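Whole-lung RNA was extracted with Trizol and columns, selected for poly(A) and made into directional libraries, per the labels' protocols. The submitters' processing notes name bcl2fastq 1.8.4, Trimmomatic, HISAT2, featureCounts 1.6.3 and mm10; options, annotation release and strand setting are not given in the sources used here. The deposited table holds raw counts per gene, 1 column per library, not normalized by the authors per the file headers. Total counts per library (16021877 to 22058620) leave little counting error in the 10 genes, and libraries of a group differed by more (chi-square per degree of freedom 9.36 to 46.5).

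Genes were kept by filterByExpr (minimum count 10, minimum total 15), scaled by TMM and fitted in 1 edgeR quasi-likelihood model of 4 group means over 12 libraries (edgeR 4.0.16, limma 3.58.1, R 4.3.3; 8 residual degrees of freedom). Comparisons were two-sided F tests with Benjamini-Hochberg adjustment over 18556 genes at a threshold of 0.05. The SE is the absolute log2 fold change over the square root of F. An exact permutation test of 3 against 3 libraries cannot go below 0.1, so none was used. Exon lengths came from GENCODE M21, and promoters from RefSeq. Levels relative to pan-epithelial genes, and correlations, used log2(CPM + 0.5). The fit was tested on simulated data.

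The 10 genes and the gene lists were chosen with earlier results of these data known. Named genes were the 10 in every comparison, up to 4 called list members with the largest change and up to 2 uncalled ones with the highest level, from which a selection is printed, and the 8 genes most and 3 least like the 10. For age, all uncalled type 2 transcription factors were named as well. Alternatives were limma-voom, DESeq2 1.42.0, library totals, RLE factors, removal of mitochondrial, haemoglobin and immunoglobulin genes before scaling, a filter at a mean CPM of 1 or none, the replicate number as a block, 2-group fits, leaving out each library, and scaling to pan-epithelial genes, which was added after seeing the data. Figures used Python 3.11.15 and matplotlib 3.10.9.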

Additional observations from a re-analysis of the deposited data

How the results depend on the processing

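With age, 10 of the 10 genes were called, beside 1328 called lower of all 18556 genes tested. Leaving out 1 library gave 5 to 9 (449 to 1084 of all genes called lower), library totals alone 7 (930) and no filter 9 (1134 of 31441). With mitochondrial, haemoglobin and immunoglobulin genes removed before scaling all 10 stayed called (1129 of 18393). Their edgeR adjusted p ran from 0.00225 (Lamp3) to 0.0449 (Sftpb). The replicate number as a block gave 9 (1118), with Slc34a2 lost (edgeR adjusted p 0.0532). The numbers did not pair the libraries: same-numbered libraries had deviations with a median correlation of -0.0239 over 18 pairs (-0.213 to 0.200), and the block changed no other call of the 10. Scaled to pan-epithelial genes, 0 of the 10 were called, beside 12541 of 18556 genes tested. On that scaling 6 estimates changed sign: Sftpb 0.18, Sftpa1 0.10, Sftpd 0.15, Abca3 0.0004, Slc34a2 0.0508 and Napsa 0.32. It takes the fall of the pan-epithelial genes, itself called with age, as no change. For anti-PD-1 over control the count was 0, and 1 (Slc34a2) under DESeq2, without immunoglobulin, haemoglobin and mitochondrial genes, with only the 2 groups fitted and scaled to pan-epithelial genes. Under the last of these settings 3267 of 18556 genes tested were called. For the combination over anti-PD-1 it was 0, and 1 (Cxcl15) under DESeq2; leaving out 1 library gave 0 to 1. Library totals moved the median of all genes tested to -0.21 in that comparison. Of the genes in all 16 lists, 72 were called with age (38 to 68 with 1 library left out), 42 for anti-PD-1 over control (24 with only the 2 groups fitted, 18 to 40 with 1 library left out), 22 for the combination over anti-PD-1 (4 to 24) and 0 for the combination over control (2 under DESeq2). Over all genes tested, anti-PD-1 over control had 2025 calls (881 with only the 2 groups fitted, 607 without the second aged control library), the combination over anti-PD-1 had 1674 (3014 with library totals, 260 without the second combination library) and age had 2830 (1160 without the third young library); the causes were not tested. Over 3953 values of single genes under alternatives, 3582 kept their direction or call, 321 lost a call, 44 gained one and the 6 above reversed; 140 values that were called in neither setting changed sign and are counted as kept. There are 3 libraries a group, and the 95% intervals of uncalled estimates cover the spread between them.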

Other observations

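The gene ontology terms deposited with the counts give another view of surfactant genes with age. The term lamellar body was attached to 16 genes, 5 of them among the 10 (Sftpc, Sftpb, Abca3, Lamp3 and Napsa). Of the 11 others 7 were tested: the sphingomyelinase Smpd1 fell by 0.49 ± 0.11 (edgeR adjusted p 0.01), Clip2, a microtubule linker, rose by 0.54 ± 0.15 (edgeR adjusted p 0.0241) and 5 were not called. The term surfactant homeostasis was attached to 25 genes, 3 of them among the 10 (Sftpd, Abca3 and Napsa). Of 16 others tested, the lysophosphatidylcholine acyltransferase Lpcat1 fell by 0.64 ± 0.16 (edgeR adjusted p 0.0171) and the growth factor Vegfa by 0.85 ± 0.27 (edgeR adjusted p 0.0486), while the oxygen-sensing factor Epas1 rose by 0.54 ± 0.14 (edgeR adjusted p 0.019) and Tgfb1 by 0.42 ± 0.12 (edgeR adjusted p 0.0349). With 1 library left out, Smpd1 lost its call without young replicate 3 alone, and Lpcat1 without aged anti-PD-1 replicate 3 or young replicate 2 or 3. Clip2 and Epas1 were called in 2 of 6 such fits and Vegfa and Tgfb1 in 1 of 6, with edgeR adjusted p up to 0.173 (Vegfa), and young replicates 2 and 3 and aged anti-PD-1 replicate 3 were among the libraries without which each lost it. These terms were looked up after the values of the 10 genes were seen.

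The ratio of Sftpb to Sftpc, a pair chosen after its values were seen, had log2 values of -2.83 to -2.55 in the combination group, -2.41 to -2.31 in the aged anti-PD-1 group, -2.86 to -2.67 in the aged control group and -2.60 to -2.45 in the young anti-PD-1 group. It was highest in the 3 aged anti-PD-1 libraries, whose range did not overlap that of the other groups.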
